A study of Mus musculus with 12 samples.

Results

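The tumour suppressor p53 (Trp53) and 9 of its target genes, namely Mdm2, Bax, Phlda3, Sesn1, Ccng1, Zmat3, Trp53inp1, Bbc3 and Aen, were followed in NIH-3T3 cells that carried wild-type or mutant CBL. The 10 genes were taken by symbol from the tables, 1 row per gene ID, out of 39179 gene IDs. NIH-3T3 is an immortalized mouse embryonic fibroblast line of NIH/Swiss background, and all cells were at passages 13 to 17. Infection with packaged virus, followed by puromycin selection, gave 4 stable lines with 3 RNA libraries each, 12 in all: an empty vector line (EV), a line expressing wild-type CBL (WT-CBL), a line expressing mutant CBL 70Z (CBL-70Z) and a line expressing mutant CBL Y371S (CBL-Y371S). CBL is a ubiquitin ligase that directs activated receptor tyrosine kinases to degradation, and 70Z and Y371S are oncogenic forms altered in its linker and RING region. Each construct is represented by 1 line, so an effect of the construct and a property of the line cannot be told apart, and the labels do not say whether a line is a clone or a pool. Nothing in the labels says that the 3 libraries of a line came from separate cultures, and the p-values therefore reflect only how far these libraries vary. Where values of the CBL lines follow each other without a name, they stand in the order WT-CBL, then CBL-70Z, then CBL-Y371S.

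p53 is a transcription factor that is kept at low protein level by the ubiquitin ligase Mdm2, which is itself a p53 target and so closes a feedback loop. When DNA damage or other stress frees p53 from Mdm2, it binds response elements near genes for cell cycle arrest, apoptosis, DNA repair and antioxidant defence. Much of this control acts on the protein, which RNA sequencing does not measure. The ARF protein from the Cdkn2a locus restrains Mdm2, and the loss of this locus is a known feature of NIH-3T3 cells.

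Libraries held 20724468 to 29684881 reads in genes, and the 10 genes had 421 to 11689 reads in every library, so that all 10 were among the 15266 genes that passed the filter on low values in any line. Levels are normalized reads on a scale shared by the 12 libraries. Fold changes are log2 differences of (value + 1) from limma with their moderated standard error (SE), and a gene is called at a Benjamini-Hochberg adjusted p below 0.05 over all 15266 genes. Summed fibroblast markers were at 737519 to 1031633 normalized reads per library, against at most 142.9 for epithelial, 83.7 for blood and 40.6 for endothelial markers. Of the 10 fibroblast markers 8, 8 and 9 were called lower than EV in the CBL lines, where 21.0%, 12.1% and 30.3% of all tested genes were. In each line 1 marker was called higher, where 20.8%, 12.2% and 29.8% of all tested genes were. The part of these markers in the results was not tested. Fold changes against EV also followed the exon length of genes (Spearman rho over 11141 genes -0.585, -0.261 and -0.516 in the CBL lines), so values with a fitted trend in exon length and GC content removed are given where they move a result. In bulk RNA, fewer cells of a type and less RNA per cell cannot be told apart.

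A p53 response element is made of a pair of 10-base motifs with a short spacer. RefSeq promoter windows of GRCm38.p6, from 250 bases before to 50 bases after a start site, were at hand for 8 of the 10 genes (12 windows; Zmat3 and Trp53inp1 had none). On both strands, 6 of the 12 windows held an element with at most 3 mismatches over its 20 positions, with both cores whole and a spacer of up to 13 bases. Among all 32851 windows of that length 2207 (6.72%) did. The genes were picked as p53 targets, so the difference is a description. For each gene with an element before a start site, the 1 with the fewest mismatches and then the shortest spacer is shown, so that the matches of these genes can be read side by side, with the motif pair in capitals and any spacer and flanks in lower case, 5′ to 3′ on the strand of the gene.
Trp53, chr11:69580264-69580323, plus strand: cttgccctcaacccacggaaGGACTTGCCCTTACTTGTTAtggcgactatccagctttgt
Bax, chr7:45467059-45467119, minus strand: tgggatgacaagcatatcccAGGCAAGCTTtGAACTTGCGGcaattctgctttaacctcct
Sesn1, chr10:41887233-41887295, plus strand: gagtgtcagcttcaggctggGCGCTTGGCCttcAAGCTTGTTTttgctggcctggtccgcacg
Bbc3, chr7:16309466-16309525, plus strand: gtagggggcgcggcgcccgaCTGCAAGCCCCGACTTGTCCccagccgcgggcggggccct
Aen, chr7:78895937-78895956, plus strand: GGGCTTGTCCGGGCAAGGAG
Trp53 and Bax each had 2 elements before the start, of which 1 is shown. The Bax and Sesn1 elements had 2 mismatches, and those of Trp53, Bbc3 and Aen had 3. They began 201 bases before the start in Bax, 186 in Sesn1, 121 in Aen, 97 in Bbc3 and 75 in Trp53. The Aen element lies in an annotated exon of Aen that begins at an earlier start, so it is shown without flanks. No such element was in the windows of Mdm2, Phlda3 and Ccng1, which says nothing about elements outside them. These matches describe the sequence, and binding was not measured.

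Against EV, p53 itself was higher in all 3 CBL lines, most in CBL-Y371S. Trp53 (ENSMUSG00000059552, chromosome 11, 69580359 to 69591873 of GRCm38, plus strand) was at 3687, 3719 and 3600 normalized reads in EV and at 4063, 4248 and 4310 in WT-CBL. In CBL-70Z it was at 4065, 4050 and 3879, and in CBL-Y371S at 4816, 4940 and 4958. No library of any CBL line overlapped EV, while WT-CBL and CBL-70Z overlapped each other. The log2 fold change against EV was 0.20 ± 0.03 in WT-CBL (± SE, n = 3 libraries per line, limma adjusted p = 3.39e-05). CBL-70Z had 0.12 ± 0.03 (adjusted p = 0.00488), and CBL-Y371S showed the largest value, 0.42 ± 0.03 (adjusted p = 4.32e-10). CBL-Y371S was also above WT-CBL by 0.22 ± 0.03 (limma adjusted p = 8.33e-06). CBL-70Z did not pass the test against WT-CBL, with a difference of -0.07 and a 95% interval of -0.14 to -0.01 (adjusted p = 0.0683), and was called lower without WT-CBL replicate 1 (adjusted p = 0.0243). The kit does not mark the strand. Wrap53, the antisense neighbour whose product is a telomerase and Cajal body protein, starts at 69580255 on the minus strand and runs away from Trp53. The annotated genes do not overlap, and the Trp53 element shown above lies between their starts. Wrap53 was at 384.6 to 528.9 normalized reads over the 12 libraries. Reads may also be shared with Trp53-ps, a processed copy of Trp53, which was at 84.8 to 137.1.

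**Figure D1:**
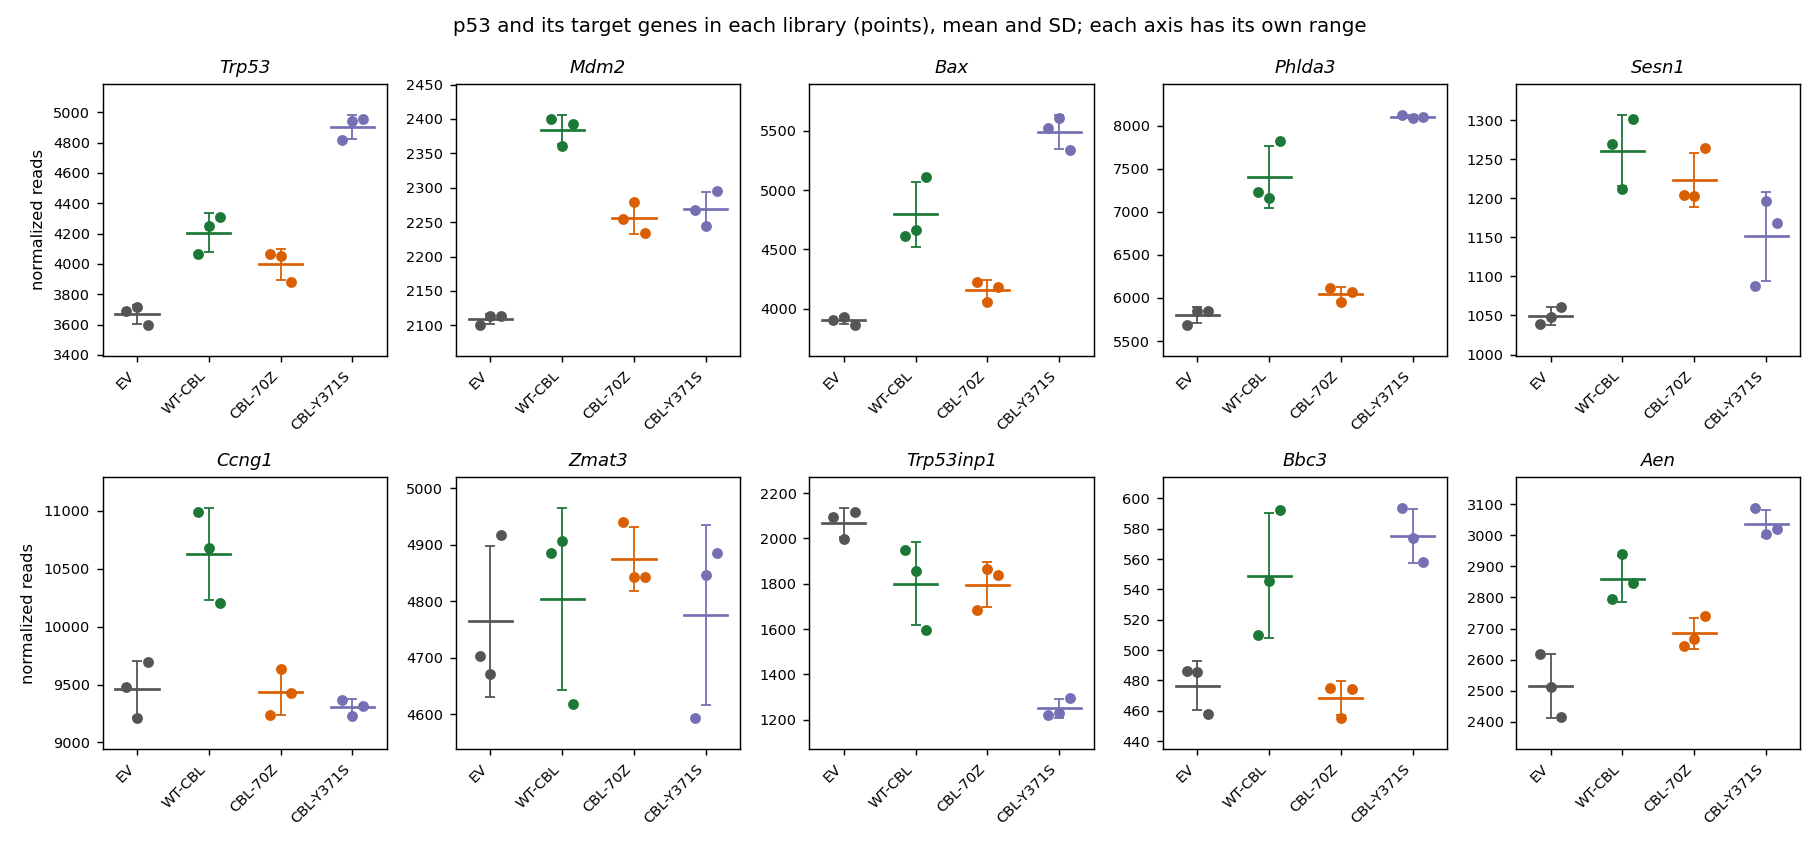
Normalized reads of p53 and its 9 targets in each of the 12 libraries, with 1 panel per gene and its own vertical range that does not start at 0. Points are libraries, horizontal bars the mean and vertical bars the SD of 3 libraries per line. Trp53, Bax, Phlda3 and Aen are lowest in EV and highest in CBL-Y371S, while Trp53inp1 falls from 2069 in EV to 1250 in CBL-Y371S on average.

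Among the feedback genes, Mdm2, the ligase that marks p53 for degradation, was higher in all 3 CBL lines and, in normalized reads, highest in WT-CBL. It (ENSMUSG00000020184, chromosome 10, 117688875 to 117710758) was at 2101, 2114 and 2113 normalized reads in EV, 2400, 2360 and 2393 in WT-CBL, 2254, 2280 and 2234 in CBL-70Z and 2268, 2244 and 2295 in CBL-Y371S. EV libraries were thus below all others and those of both mutants overlapped. The log2 fold changes against EV were 0.18 ± 0.03, 0.10 ± 0.03 and 0.10 ± 0.03 (limma adjusted p = 5.71e-05, 0.0168 and 0.00348). The call in CBL-70Z was lost with DESeq2 (adjusted p = 0.071), without CBL-70Z replicate 2 (0.0595) and without EV replicate 1 (0.0558). CBL-Y371S was not called against WT-CBL, at -0.07 (limma adjusted p = 0.0527). With the trend in length and GC removed, the change against EV was 0.21 in WT-CBL and 0.20 rather than 0.10 in CBL-Y371S. The difference between these lines was then -0.01 (limma adjusted p = 0.797).

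Ccng1 encodes cyclin G1, a p53 target that recruits a phosphatase to Mdm2, and it moved in WT-CBL. Ccng1 (ENSMUSG00000020326, chromosome 11, 40748552 to 40755311) was at 9481, 9212 and 9695 normalized reads in EV and 10992, 10676 and 10204 in WT-CBL. CBL-70Z libraries held 9238, 9638 and 9425 and CBL-Y371S libraries 9366, 9226 and 9317, within the EV range. WT-CBL did not overlap any other line. Its log2 fold change was 0.17 ± 0.03 against EV (limma adjusted p = 0.000161), and CBL-70Z and CBL-Y371S were below WT-CBL, at -0.17 ± 0.03 and -0.19 ± 0.03 (adjusted p = 0.000149 and 3.62e-05). CBL-70Z and CBL-Y371S differed from EV by -0.00 (95% interval -0.07 to 0.06) and -0.02 (-0.09 to 0.04). With the trend removed, CBL-Y371S turned to 0.10 above EV (limma adjusted p = 0.00238), and its difference from WT-CBL shrank to -0.08.

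Of the apoptosis genes among the 10, Bax and Phlda3 rose furthest in WT-CBL and CBL-Y371S in the main fit. With the trend removed, their changes against EV were 0.243 and 0.283 in WT-CBL and 0.349 and 0.324 in CBL-Y371S. Aen was then at 0.238 and 0.325 and Bbc3 at 0.195 and 0.184 in these lines, so Phlda3 no longer exceeded Aen in CBL-Y371S. Bax, the pore-forming protein of the outer mitochondrial membrane (ENSMUSG00000003873, chromosome 7, 45461697 to 45466898), was at 3905, 3935 and 3867 normalized reads in EV and 4614, 4661 and 5111 in WT-CBL. In CBL-70Z it was at 4228, 4059 and 4181, and in CBL-Y371S at 5525, 5610 and 5333. The 4 lines did not overlap, in the order EV, CBL-70Z, WT-CBL, CBL-Y371S. The log2 fold change against EV was 0.30 ± 0.04 in WT-CBL and 0.49 ± 0.04 in CBL-Y371S (limma adjusted p = 1.72e-06 and 3.32e-10). In CBL-70Z it was 0.09 ± 0.04 and not called (adjusted p = 0.0672), but was called without WT-CBL replicate 3 (0.00667), which was the highest of its line, in a fit of these lines alone (0.00542) and with the trend removed (0.00214). CBL-Y371S exceeded WT-CBL by 0.20 ± 0.04 and CBL-70Z was below it, at -0.21 ± 0.04 (limma adjusted p = 0.000153 and 0.000121), and these became 0.11 and -0.11 with the trend removed. The gene Gm45808 overlaps Bax in the reference annotation.

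Phlda3, which competes with AKT for membrane lipids and so dampens AKT signaling, had the highest level per length of the 10 genes. Phlda3 (ENSMUSG00000041801, chromosome 1, 135766119 to 135769136) was at 5690, 5847 and 5854 normalized reads in EV, 7233, 7158 and 7819 in WT-CBL, 6113, 5956 and 6065 in CBL-70Z and 8122, 8085 and 8095 in CBL-Y371S. All 4 lines were separate. WT-CBL was above EV by 0.35 ± 0.03 and CBL-Y371S by 0.48 ± 0.03 on the log2 scale (limma adjusted p = 4.58e-08 and 6.62e-11). CBL-70Z was at 0.06 ± 0.03 and not called (adjusted p = 0.172), but was called without WT-CBL replicate 3 (0.0344), in a fit of these lines alone (0.0452) and with the trend removed (0.00928). The difference of 0.13 ± 0.03 between CBL-Y371S and WT-CBL (limma adjusted p = 0.00195) lost its call with the trend removed, where it was 0.04.

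Bbc3, or Puma, a BH3-only activator of apoptosis, had the lowest level per length of the 10 genes in EV. Bbc3 (ENSMUSG00000002083, chromosome 7, 16308393 to 16318205) was at 486.1, 485.4 and 457.7 normalized reads in EV and 509.7, 545.3 and 592.3 in WT-CBL. In CBL-70Z it was at 475.2, 455.3 and 474.3, overlapping EV, and in CBL-Y371S at 593.4, 573.7 and 558.1. The log2 fold change against EV was 0.20 ± 0.06 in WT-CBL (limma adjusted p = 0.00721) and 0.27 ± 0.06 in CBL-Y371S (0.00035), while CBL-70Z was at -0.02 ± 0.06 (0.807, 95% interval -0.14 to 0.09). Without WT-CBL replicate 3 the call in WT-CBL was lost (adjusted p = 0.0514).

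Aen, an exonuclease that digests DNA during p53-dependent apoptosis, was ordered over the lines as Trp53 was. Aen (ENSMUSG00000030609, chromosome 7, 78895854 to 78911209) was at 2618, 2511 and 2414 normalized reads in EV, 2794, 2941 and 2846 in WT-CBL, 2644, 2667 and 2741 in CBL-70Z and 3087, 3005 and 3020 in CBL-Y371S. The lines did not overlap, although the highest EV and lowest CBL-70Z libraries lay close together. Fold changes against EV were 0.19 ± 0.03, 0.09 ± 0.03 and 0.27 ± 0.03 on the log2 scale (limma adjusted p = 0.000169, 0.0456 and 6.44e-07). The call in CBL-70Z was lost in 6 of 13 alternative fits and in 8 of the 12 fits that left a library out, CBL-70Z replicates 1, 2 and 3, CBL-Y371S replicates 1, 2 and 3 and EV replicates 2 and 3, with adjusted p up to 0.218.

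Trp53inp1 went the other way. It encodes a stress protein that promotes p53-dependent apoptosis and autophagy and is itself a p53 target. Trp53inp1 (ENSMUSG00000028211, chromosome 4, 11156431 to 11174379) was at 2096, 1996 and 2115 normalized reads in EV, 1949, 1858 and 1596 in WT-CBL, 1684, 1866 and 1840 in CBL-70Z and 1221, 1231 and 1298 in CBL-Y371S. EV was above every other library, CBL-Y371S was below every other library, and WT-CBL and CBL-70Z overlapped. The log2 fold change against EV was -0.73 ± 0.06 in CBL-Y371S (limma adjusted p = 1.15e-09), where the level was 39.6% lower, and -0.20 ± 0.06 in both WT-CBL and CBL-70Z (adjusted p = 0.00644 and 0.0111). With the trend removed, these were -0.44 in CBL-Y371S, -0.08 and no longer called in WT-CBL (adjusted p = 0.186) and -0.19 in CBL-70Z. The CBL-70Z call was lost without CBL-70Z replicate 1 (adjusted p = 0.0816) or EV replicate 3 (0.0516).

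Sesn1, which encodes a sestrin that restrains mTORC1 and protects against oxidants, was higher than EV in all 3 lines and did not follow Trp53 in order. Sesn1 (ENSMUSG00000038332, chromosome 10, 41809935 to 41908424) was at 1039, 1048 and 1061 normalized reads in EV, 1269, 1212 and 1302 in WT-CBL, 1204, 1203 and 1264 in CBL-70Z and 1088, 1197 and 1169 in CBL-Y371S. No library overlapped EV, and WT-CBL and CBL-70Z overlapped each other. Against EV the log2 fold changes were 0.26 ± 0.04, 0.22 ± 0.04 and 0.13 ± 0.04 (limma adjusted p = 5.11e-05, 0.000594 and 0.0108). The last was lost without CBL-Y371S replicate 2 (adjusted p = 0.0659). Sesn1 overlaps the gene 9930024M15Rik in the reference annotation.

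Zmat3, an RNA-binding zinc finger protein that acts in growth suppression, passed the test in none of the 6 comparisons (limma, also none at an unadjusted p under 0.05 and none by edgeR or DESeq2). Zmat3 (ENSMUSG00000027663, chromosome 3, 32334792 to 32366014) was at 4704, 4672 and 4917 normalized reads in EV and 4885, 4907 and 4618 in WT-CBL. CBL-70Z libraries held 4940, 4843 and 4842 and CBL-Y371S libraries 4594, 4847 and 4886. All lines overlapped EV, and the 95% intervals of the log2 fold changes were -0.06 to 0.08, -0.03 to 0.10 and -0.06 to 0.07. With 11435 bases of exon it is the longest of the 10 genes, and with the trend in length and GC removed it was called higher than EV in all 3 lines, by 0.20, 0.08 and 0.30 (limma adjusted p = 1.04e-05, 0.0296 and 7.95e-09). Its direction between lines therefore rests on that trend.

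**Figure D2:**
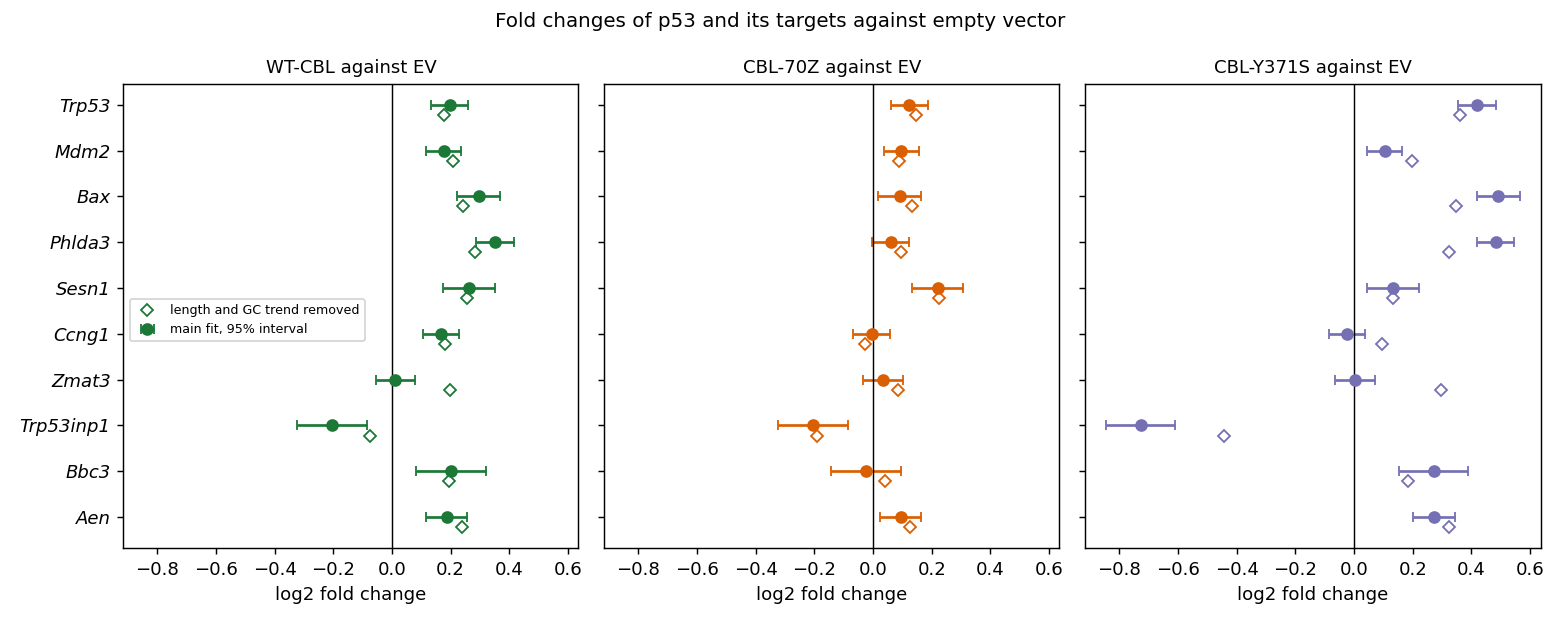
Log2 fold change against EV (horizontal axis) of p53 and its 9 targets in the 3 CBL lines. Filled circles are limma estimates with 95% intervals and open diamonds the estimates with the trend in exon length and GC content removed. Among the circles, those of Bax and Phlda3 lie furthest right in CBL-Y371S (0.49 and 0.48). Trp53inp1 lies left in all 3 lines, and Zmat3 moves from 0.00 to 0.30 in CBL-Y371S when the trend is removed.

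As a group, most of the 10 genes were higher than EV in WT-CBL and CBL-Y371S. In WT-CBL 8 were called higher, where 20.8% of all tested genes were, and 1 lower, where 21.0% were, so that 9 of 10 were called beside 41.8% of all genes. In CBL-Y371S 7 were called higher (29.8% of all genes) and 1 lower (30.3%), or 8 of 10 beside 60.1%. In CBL-70Z 4 were called higher (12.2%) and 1 lower (12.1%), or 5 of 10 beside 24.3%. The median log2 fold change of the 10 genes was 0.19, 0.20 and 0.08 in WT-CBL, CBL-Y371S and CBL-70Z, against 0.01, 0.01 and 0.01 over all tested genes. The count of 5 in CBL-70Z was 3 with DESeq2, 8 with the trend removed, and 3 without CBL-70Z replicate 1, without CBL-70Z replicate 2 or without EV replicate 3. Over all genes, 2965 of 15266 were called in CBL-70Z with DESeq2 and 4029 of 15095 with the trend removed. These comparisons share the EV libraries.

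Set against WT-CBL, the mutants parted. The lines also differed in reads at the Cbl gene, and the part of this in the results was not tested. Cbl was at 802.2, 924.8 and 687.5 normalized reads in WT-CBL, overlapping EV at 728.1, 687.3 and 625.0. It was at 1700, 1820 and 1614 in CBL-70Z and at 1407, 1680 and 1457 in CBL-Y371S. Whether these include reads of the constructs was not tested. In CBL-70Z 6 of the 10 genes were called lower than WT-CBL (16.3% of all genes were) and none higher (18.9%; limma, also none at an unadjusted p under 0.05 and none by edgeR or DESeq2), or 6 of 10 beside 35.2%. These 6 were Mdm2, Bax, Phlda3, Ccng1, Bbc3 and Aen, with log2 fold changes of -0.08, -0.21, -0.29, -0.17, -0.23 and -0.09. With the trend removed, 8 were called lower, where 2412 of 15095 genes were. Zmat3 and Trp53inp1 were then lower as well, at -0.11 and -0.12 (limma adjusted p = 0.00332 and 0.047). Mdm2, Phlda3 and Bbc3 were then at -0.12, -0.19 and -0.15. The calls of Mdm2 and Aen were lost with DESeq2 (adjusted p = 0.118 and 0.0728) and with some libraries left out (limma, up to 0.107 and 0.143). Both were also lost with edgeR and TMM, TMM-scaled values, no filter, the compared lines alone or a replicate block. With edgeR and TMM, as with DESeq2, 4 genes rather than 6 were called lower. In CBL-Y371S 4 genes were called higher than WT-CBL (18.5% of all genes) and 3 lower (21.5%), or 7 of 10 beside 40.0%. Trp53, Bax, Phlda3 and Aen were higher, by 0.22, 0.20, 0.13 and 0.09, and Sesn1, Ccng1 and Trp53inp1 lower, at -0.13, -0.19 and -0.52. The Aen and Sesn1 calls were again lost without some libraries (adjusted p up to 0.16 and 0.124) and with the compared lines alone (limma, 0.0718 and 0.0521). The Aen call was also lost with DESeq2 (0.0718), and in limma with no filter (0.0775) or a replicate block (0.0597). With the trend removed, Trp53inp1 was at -0.37 and Phlda3, at 0.04, was not called.

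Between the mutants, 5 of the 10 genes were called lower in CBL-70Z than in CBL-Y371S (24.5% of all genes were) and 1 higher (25.9%), or 6 of 10 beside 50.4%. Lower in CBL-70Z were Trp53, Bax, Phlda3, Bbc3 and Aen, at -0.29, -0.40, -0.42, -0.30 and -0.18 on the log2 scale (limma adjusted p between 1.88e-09 and 0.000214). Trp53inp1 was higher by 0.52 (adjusted p = 2.68e-07), or 0.25 with the trend removed, where Bax, Phlda3 and Bbc3 were at -0.22, -0.23 and -0.14. Mdm2 differed by -0.01 (95% interval -0.07 to 0.05), Ccng1 by 0.02 (-0.04 to 0.08) and Sesn1 by 0.09 (0.00 to 0.18, limma adjusted p = 0.0893). With the trend removed, 8 genes were called lower in CBL-70Z and 1 higher, where 3445 and 2786 of 15095 genes were. Mdm2, Ccng1 and Zmat3 were then lower as well, at -0.11, -0.12 and -0.21 (limma adjusted p = 0.00213, 0.000408 and 3.03e-06).

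Levels can be set beside each other per length. In EV, Phlda3 was at 3718 normalized reads per kilobase of exon, Ccng1 at 2694 and Bax at 2476. Trp53 followed at 906.9. Aen, Zmat3 and Mdm2 lay close together at 433.5, 416.6 and 415.0, above Trp53inp1 at 319.5, Sesn1 at 263.6 and Bbc3 at 224.3. Over the 12 libraries, the Pearson correlation with Trp53 on the log2 scale was 0.955 for Bax, 0.92 for Aen, 0.914 for Phlda3 and 0.821 for Bbc3, and -0.953 for Trp53inp1. Mdm2 was at 0.531, Sesn1 at 0.306, Zmat3 at -0.0777 and Ccng1 at -0.109. Sesn1 and Ccng1 were closer to Mdm2, at 0.846 and 0.65. The libraries share their 4 lines, so these correlations are a description of line differences. Of all tested genes the 5 most like Trp53 were Pdap1 (0.988), Ilf2 (0.988), Ahsa1 (0.987), Eif5a (0.987) and Gtse1 (0.986), of which Gtse1 is itself a p53 target that binds p53.

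Of 24 listed regulators of p53, 23 were tested, and 3 were called higher and 8 lower than EV in WT-CBL, 3 and 2 in CBL-70Z, and 6 and 12 in CBL-Y371S. These were 47.8%, 21.7% and 78.3% of the list, beside 41.8%, 24.3% and 60.1% of all tested genes, and the largest changes were downward. Hipk2, a kinase that phosphorylates p53 to favour apoptosis, was at 2299, 2355 and 2186 normalized reads in EV, 1191, 1195 and 829.3 in WT-CBL, 1630, 1650 and 1598 in CBL-70Z and 832.4, 772.7 and 835.3 in CBL-Y371S. No line overlapped EV. Its log2 fold changes were -1.11, -0.49 and -1.49 with an SE of 0.09 (limma adjusted p = 1.37e-08, 0.000366 and 2.52e-11), and -0.99, -0.42 and -1.35 with the trend removed.

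Mdm4, the partner of Mdm2 that blocks p53 as a transcription factor, was at 1831, 1873 and 1781 normalized reads in EV, 1298, 1351 and 1089 in WT-CBL, 1609, 1714 and 1615 in CBL-70Z and 896.9, 951.9 and 972.6 in CBL-Y371S. Every CBL library was below EV. The log2 fold changes were -0.56 and -0.96 ± 0.06 in WT-CBL and CBL-Y371S (limma adjusted p = 3.96e-07 and 3.36e-11) and -0.15 in CBL-70Z (0.0653), and became -0.30, -0.55 and -0.11 with the trend removed.

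Atm, the kinase that signals DNA breaks to p53, fell by 0.67 and 0.99 in WT-CBL and CBL-Y371S (SE 0.07, limma adjusted p = 4.53e-07 and 3.42e-10), which became -0.48 and -0.65 with the trend removed, and was at -0.08 in CBL-70Z (0.483). Ep300, an acetyltransferase that coactivates p53, was at -0.55, -0.16 and -0.72 (limma adjusted p = 2.65e-07, 0.0379 and 1.11e-09). It was at -0.33, -0.08 and -0.43 with the trend removed, where the call in CBL-70Z was lost (0.0986), as it was without any 1 of the EV or CBL-70Z replicates (up to 0.0964). Hipk2, Mdm4, Atm and Ep300 have 8836, 14798, 10338 and 14273 bases of exon. With the trend removed, the counts of the list in CBL-Y371S turned from 6 higher and 12 lower to 11 higher and 7 lower. Over all genes, 4552 higher and 4626 lower of 15266 became 4846 higher and 3722 lower of 15095.

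Regulators that rose were Twist1, a transcription factor that restrains p53, by 0.28, 0.23 and 0.41 (0.18, 0.24 and 0.22 with the trend removed), and Npm1, a nucleolar protein that binds ARF, by 0.20 and 0.25 in WT-CBL and CBL-Y371S. Chek1, a checkpoint kinase, rose by 0.25 in CBL-70Z, and Rpl11, a ribosomal protein that binds Mdm2, by 0.43 in CBL-Y371S. Wrap53 was at 0.11, 0.01 and 0.33 in the 3 lines and was called in CBL-Y371S (limma adjusted p = 9.3e-05), where it was at 0.17 with the trend removed. Cdkn2a had 4 reads over the 12 libraries, in 3 of them, and was not tested. The calls of CBL-70Z in this list moved with single libraries, since the count of 2 lower was 1 without CBL-70Z replicate 1 or 3 or any EV replicate and 5 without WT-CBL replicate 3, and the count of 3 higher in WT-CBL was 5 without CBL-Y371S replicate 2. Of the p53 family, Trp63 alone was tested and was not called against EV in any line (limma, 1 of the 3 comparisons had an unadjusted p under 0.05, with Trp63 lower in CBL-70Z, and none were called by edgeR or DESeq2).

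**Figure D3:**
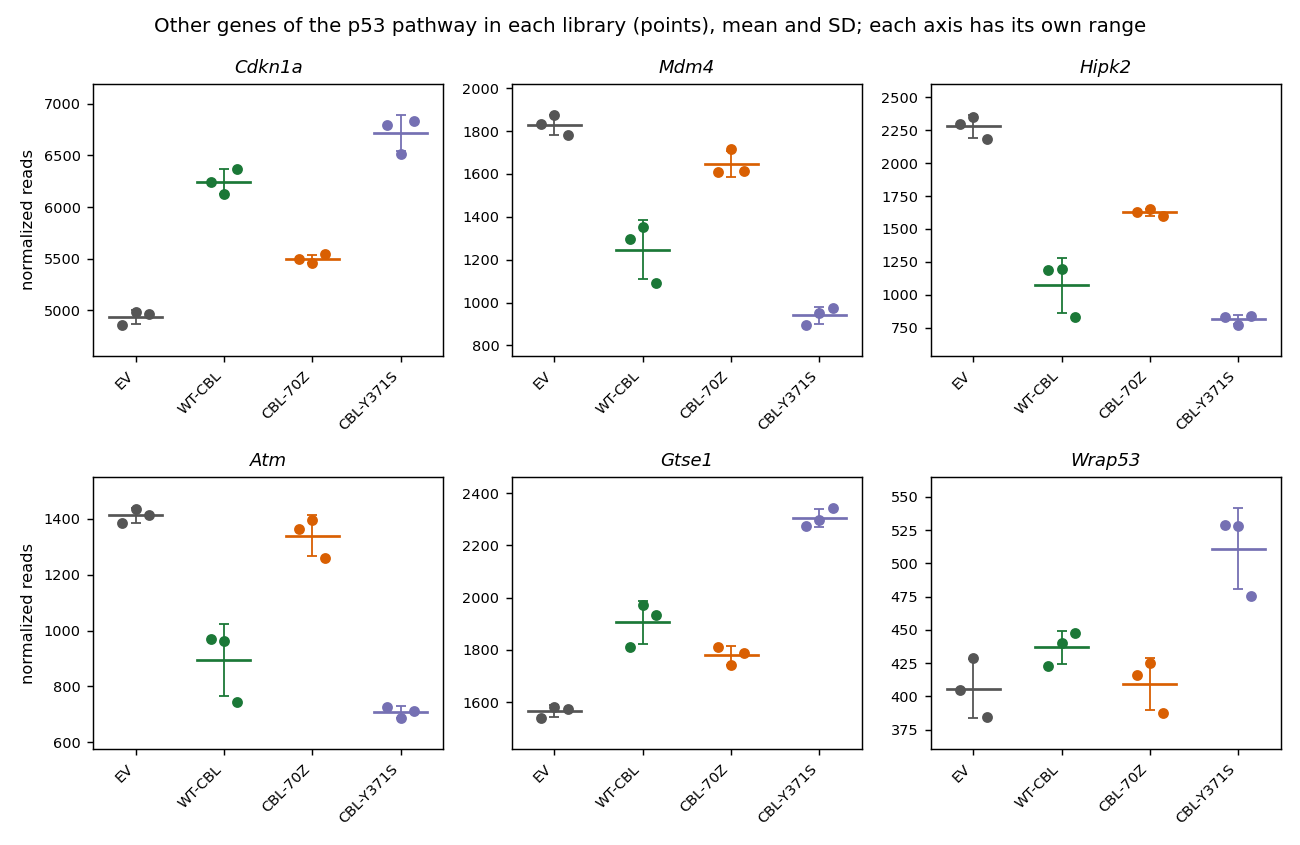
Normalized reads of 6 further genes of the p53 pathway in each of the 12 libraries, 1 panel per gene with its own vertical range that does not start at 0. Points are libraries, horizontal bars the mean and vertical bars the SD of 3 libraries per line. Cdkn1a and Gtse1 are lowest in EV and highest in CBL-Y371S, and Mdm4, Hipk2 and Atm show the opposite order, with WT-CBL replicate 3 the lowest of its line in these 3 genes.

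The list headed cell cycle arrest also holds genes of spindle and microtubule proteins (Psrc1 and Ckap2), so its counts are not of arrest genes alone. Of its 10 targets, all tested, 6 were called higher and none lower than EV in WT-CBL (limma, also none at an unadjusted p under 0.05 and none by edgeR or DESeq2). In CBL-70Z 5 were called higher and 3 lower, and in CBL-Y371S 6 higher and 1 lower. Of all tested genes 20.8%, 12.2% and 29.8% were called higher and 21.0%, 12.1% and 30.3% lower. Cdkn1a, which encodes the CDK inhibitor p21, was at 4862, 4980 and 4968 normalized reads in EV, 6239, 6127 and 6370 in WT-CBL, 5498, 5463 and 5541 in CBL-70Z and 6795, 6512 and 6835 in CBL-Y371S, with no overlap of lines. Its log2 fold changes were 0.34, 0.16 and 0.44 with an SE of 0.03 (limma adjusted p = 1.54e-08, 0.000252 and 4.29e-11). Gtse1 rose by 0.28, 0.18 and 0.56, Psrc1, a spindle protein, by 0.32, 0.10 and 0.54, and Ckap2, a microtubule protein, by 0.23, 0.16 and 0.22. Btg2, an antiproliferative cofactor of mRNA decay, was at -0.02 in WT-CBL but fell in both mutants, with -0.36 and -0.33 (limma adjusted p = 0.695, 4.3e-07 and 2.02e-07). Plk2, a polo-like kinase, fell by 0.20 in CBL-70Z and rose by 0.09 in WT-CBL, a call lost without EV replicate 2 or 3 or WT-CBL replicate 1 (adjusted p up to 0.128). The Psrc1 call in CBL-70Z was lost without EV replicate 3 or CBL-70Z replicate 3 (up to 0.0929). The 5 higher in CBL-70Z were 3 with DESeq2, without CBL-70Z replicate 3 or without EV replicate 3.

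Of 12 further apoptosis targets 9 were tested (Pmaip1, Perp and Trp53i11 were too low), and 4 were called higher and 1 lower in WT-CBL, 3 and 1 in CBL-70Z, and 4 and 2 in CBL-Y371S. These were 55.6%, 44.4% and 66.7% of the tested targets, beside 41.8%, 24.3% and 60.1% of all genes. Pidd1, the core of the PIDDosome that activates caspase-2, rose by 0.32, 0.23 and 0.55. Fas, the death receptor, rose by 0.31 in WT-CBL, Siva1, an adaptor of death receptors, by 0.32 in CBL-Y371S, and Bcl2l11, the BH3-only protein Bim, by 0.26 in CBL-70Z. Apaf1, the scaffold of the apoptosome, fell by 0.36, 0.21 and 0.65, or -0.22, -0.18 and -0.39 with the trend removed. Eda2r, a receptor of the TNF family, was at -0.11 in CBL-Y371S (limma adjusted p = 0.041). The call was lost with edgeR and TMM, DESeq2, no filter or a replicate block. It was also lost without any 1 of 6 libraries (CBL-70Z replicate 3, CBL-Y371S replicates 1, 2 and 3, EV replicates 1 and 3). With the trend removed Eda2r was called higher, at 0.10 (limma adjusted p = 0.0352).

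Of 8 DNA repair targets, all tested, 1, 1 and 4 were called in the 3 lines, beside 41.8%, 24.3% and 60.1% of all genes. Among them 1 was called higher in each line, which in WT-CBL was Ercc5, a nuclease of excision repair (0.16). In CBL-Y371S 3 were called lower, among them Rrm2b, the p53-inducible ribonucleotide reductase subunit (-0.41), and Polk, a translesion polymerase (-0.19). With the trend removed none were, where 3722 of 15095 genes were called lower.

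Of 15 targets in metabolism, redox control and autophagy 13 were tested, and 4 were called higher and 4 lower in WT-CBL, 2 and 4 in CBL-70Z, and 6 and 4 in CBL-Y371S. These were 61.5%, 46.2% and 76.9% of those tested, beside 41.8%, 24.3% and 60.1% of all genes, and they went in both directions. Gpx1, a glutathione peroxidase, rose by 0.42, 0.23 and 0.62. Dcxr, a reductase of xylulose, rose by 0.38 in WT-CBL and 0.48 in CBL-Y371S (0.27 and 0.28 with the trend removed), and Prkab1, an AMPK subunit, by 0.15 in CBL-70Z. The sestrin Sesn3 fell by 0.64 and 0.73 in WT-CBL and CBL-Y371S (limma adjusted p = 4.65e-07 and 1.27e-08), or -0.39 and -0.34 with the trend removed, and its relative Sesn2 fell by 0.20 in CBL-70Z, whereas Sesn1 was higher in all 3 lines. Dram1, a lysosomal protein of autophagy, fell by 0.19, 0.20 and 0.32, and lost its calls without EV replicate 1 in WT-CBL (adjusted p = 0.0567) and without EV replicate 1 or CBL-70Z replicate 1 in CBL-70Z (up to 0.0687). The 4 lower in WT-CBL were 2 with DESeq2, 1 without EV replicate 1 and 2 without EV replicate 2, and the 2 higher in CBL-70Z were 1 without CBL-70Z replicate 1, EV replicate 2 or EV replicate 3.

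Of 15 other p53 targets, all tested, 8 were called higher and 3 lower in WT-CBL, 4 and 5 in CBL-70Z, and 8 and 5 in CBL-Y371S. Called in all were 11, 9 and 13 of 15, beside 41.8%, 24.3% and 60.1% of all genes. Thbs1, which encodes the secreted inhibitor of blood vessel growth thrombospondin-1, was at 145440, 145614 and 144143 normalized reads in EV, 108632, 109580 and 97212 in WT-CBL, 65024, 66026 and 64847 in CBL-70Z and 43242, 42979 and 43885 in CBL-Y371S, so that no lines overlapped. Its log2 fold changes were -0.47, -1.15 and -1.74 with an SE of 0.04 (limma adjusted p = 5.89e-09, 1.1e-14 and 4.13e-18). Ptpn14, a phosphatase, fell by 0.46 in CBL-Y371S, or -0.21 with the trend removed. Slc19a2, a thiamine transporter, rose by 0.28, 0.18 and 0.22, and Rps27l, a ribosomal protein-like target, by 0.25 in WT-CBL. Epha2, an ephrin receptor, rose by 0.22 in CBL-70Z. The cytokine Lif was lower in WT-CBL (-0.38) and higher in CBL-70Z (0.35) and CBL-Y371S (0.22), the last not called with the trend removed (0.18, limma adjusted p = 0.0658). Igfbp3, a binding protein of insulin-like growth factors, and Abcb1a, a drug efflux pump, were called higher in CBL-Y371S (1.51 ± 0.63 and 0.66 ± 0.26, limma adjusted p = 0.0462 and 0.0304). Igfbp3 was at 7.03, 2.50 and 21.2 normalized reads in EV and 18.3, 12.8 and 53.3 in CBL-Y371S, which overlapped, and Abcb1a at 23.1, 18.4 and 23.1 in EV and 34.7, 25.6 and 46.1 in CBL-Y371S, which did not. The 8 higher in CBL-Y371S were 5 without CBL-Y371S replicate 1 or replicate 3. Igfbp3, Abcb1a and Lif lost their calls without replicate 1 (adjusted p = 0.059, 0.0642 and 0.106) and without replicate 3 (0.251, 0.164 and 0.161), and each lost its call without at least 1 EV replicate as well (up to 0.271, 0.109 and 0.139).

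The last group holds cell cycle genes that p53 represses through p21 and the DREAM complex, and most of them were higher in the mutants. Cdkn1a was higher in both mutants and in WT-CBL. Of 12, all tested, 4 were called higher and 2 lower than EV in WT-CBL, 8 higher and none lower in CBL-70Z (limma, also none at an unadjusted p under 0.05 and none by edgeR or DESeq2), and 10 higher and 1 lower in CBL-Y371S. Called in all were 6, 8 and 11 of 12, beside 41.8%, 24.3% and 60.1% of all genes. Birc5, or survivin, was at 2013, 2061 and 2011 normalized reads in EV, 2345, 2445 and 2670 in WT-CBL, 2334, 2363 and 2420 in CBL-70Z and 2985, 3257 and 2994 in CBL-Y371S. Its fold changes of 0.29, 0.23 and 0.60 had an SE of 0.04 (limma adjusted p = 1.75e-05, 0.000498 and 2.93e-10), and WT-CBL and CBL-70Z overlapped. E2f1, a cell cycle transcription factor, rose by 0.24 in CBL-70Z, Mybl2, a partner of the DREAM core, by 0.49 in CBL-Y371S, and Cdc25c, a phosphatase of mitotic entry, by 0.18 in WT-CBL, a call lost without EV replicate 3 (adjusted p = 0.115). Top2a, the DNA topoisomerase of dividing cells, fell by 0.11 and 0.13 in WT-CBL and CBL-Y371S but was at 0.05 and 0.17 with the trend removed, and Foxm1, a mitotic transcription factor, was at -0.10 in WT-CBL (adjusted p = 0.0239). The 2 lower in WT-CBL were 1 without WT-CBL replicate 3 or EV replicate 2.

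**Figure D4:**
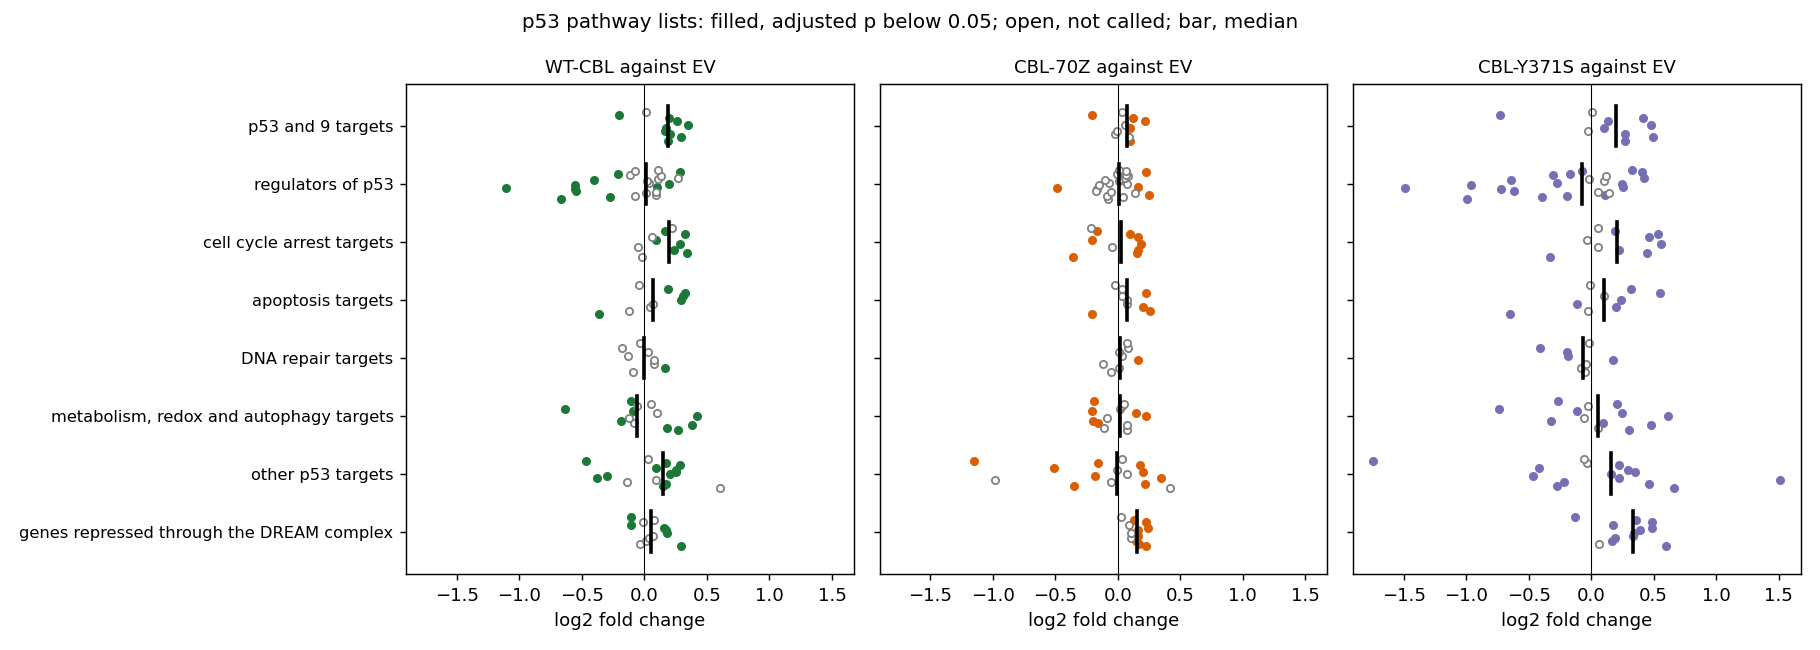
Log2 fold change against EV (horizontal axis) of every tested gene in p53, its 9 targets and 7 lists of the p53 pathway, in the 3 CBL lines. Filled points passed an adjusted p of 0.05, open points did not, and black bars are list medians. The genes repressed through the DREAM complex have medians of 0.05, 0.15 and 0.34 in the 3 lines, and the lowest points are Hipk2 at -1.49 and Thbs1 at -1.74 in CBL-Y371S.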

How the data were processed

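RNA of the 12 libraries was prepared with an unstranded kit. Per the labels, the authors used FastQC 0.10.1, TopHat2 2.0.13, Bowtie2 2.2.4.0 and HTSeq 0.9.1 on GRCm38 and normalized with DESeq2. The annotation and strand setting are not given in the sources used here. The deposited signal is normalized counts in 3 tables, each normalized by the authors with its own EV columns. The authors' fold changes and p-values, also in those tables, were not used. Whole reads were recovered at a tolerance of 1e-06 for 100% of values, and the 12 libraries were put on one scale by median-of-ratios size factors.

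Genes whose mean reached 10 in any line entered limma 3.58.1 (R 4.3.3, trend) on log2(value + 1), with 4 lines as groups and all 12 libraries. Depth sets the precision through the spread of 3 libraries. Alternatives were edgeR 4.0.16 and DESeq2 1.42.0 on recovered reads, TMM scaling, tables joined by EV columns, pseudocounts of 0.5 and 5, no filter, a mean of 50, the compared lines alone, a replicate block, removal of a length and GC trend (spline of 5 degrees of freedom) and each library left out. The test was checked on simulated data. Exon lengths and positions are from GENCODE on GRCm38 and promoters from RefSeq (GRCm38.p6).

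The genes and lists were chosen with earlier results of these data known. The 10 genes, Cdkn1a, Cdkn2a and Wrap53 were always named, with, per list and comparison with EV, the 2 highest and 2 lowest called genes, and the 5 genes correlating best with Trp53. Some genes that this rule names are not reported here. Mdm4 and Cbl were named after their values were seen, as were Trp63 and untested genes.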

Additional observations from a re-analysis of the deposited data

How the results depend on the processing

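Of the counts of the 10 genes called in the 6 comparisons, that of CBL-70Z against EV (5) moved by over 1.5 times, to 3 with DESeq2 and to 8 with the length and GC trend removed, with or without the replicate block; leaving out 1 library each time gave 3 to 7. Over all genes, 3705 of 15266 were called in this comparison, 2965 with DESeq2 and 4029 of 15095 with the trend removed and no block. The cause of the move was not tested. For single genes, 725 of the values under the alternatives other than left-out libraries kept direction and side of the threshold, 29 lost a call, 16 gained one and 10 changed sign with a call. These 10 came from removal of the trend, with the same values with and without the block: Ccng1 was 0.0965 in CBL-Y371S against EV and -0.1236 in CBL-70Z against CBL-Y371S, and Zmat3 was -0.1145 in CBL-70Z and 0.09837 in CBL-Y371S against WT-CBL and -0.2129 in CBL-70Z against CBL-Y371S. With a library left out, 682 kept direction and side, 34 lost a call, 4 gained one and 0 changed sign. Replicate numbers are shared by the lines but do not pair the libraries. After the line mean of each gene was subtracted, the deviations of same-numbered libraries correlated at -0.216 to 0.219 over 18 pairs, 1 of them over 0.1. With a replicate block the 10 genes had 9, 4, 8, 4, 6 and 6 calls against 9, 5, 8, 6, 7 and 6 without it, first for the 3 lines against EV (WT-CBL, then CBL-70Z, then CBL-Y371S), next for both mutants against WT-CBL and last for CBL-70Z against CBL-Y371S. Each of the 10 genes had at least 421 reads in every library, and whether depth or the number of libraries limits the calls was not tested.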
